A study of Mus musculus with 12 samples.

Results

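The transcripts of 10 transcription factor genes of the EGR, KLF and NR4A families, Egr1, Egr2, Egr3, Klf2, Klf3, Klf4, Klf6, Klf7, Nr4a1 and Nr4a3, were followed in RNA-seq of peritoneal exudate cells (PECs). The members were chosen by gene symbol, and 9 of the 10 are among the 12850 genes listed, while Egr3 was not analysed here. PECs were collected from C57BL/6 mice 3.5 days after intraperitoneal thioglycollate, an irritant that draws macrophages into the cavity, and were cultured and left unstimulated (0 hr) or given LPS at a dose of 100 ng/ml, with RNA taken after 4 or 8 hr. Mice were WT or carried the Zc3h12a S513A/S513A knock-in (S513A), a substitution in the RNase Regnase-1 that gene-level read numbers cannot check, so the labels were taken as given. Each of the 6 groups of genotype and time had 2 libraries, 12 in all. The labels do not say whether these came from separate mice, and the p-values measure only the spread between these libraries. All groups were cultured, so the 0 hr libraries are of cells after thioglycollate elicitation and plating, not of untouched peritoneal cells.

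EGR and KLF proteins bind GC-rich DNA with zinc fingers, and NR4A proteins are orphan nuclear receptors whose activity is set mostly by how much protein is made. Many of these genes are immediate early genes: kinase signalling switches on their transcription within minutes through factors that are already present, and unstable mRNAs let the level fall back within hours. In macrophages the families are known both for driving and for restraining inflammatory gene expression, and several members also take part in monocyte differentiation.

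Reads on listed genes numbered from 9525979 to 12439960 per library, where 3 reads correspond to 0.244 to 0.407 CPM (reads scaled to library size). The summed level of 7 macrophage markers (Adgre1, Csf1r, Cd68, Lyz2, Itgam, Fcgr1 and Mertk) lay between 16160 and 26350 CPM, against 362 to 746 CPM for the 3 listed neutrophil markers of 7 named, 8.12 to 22.7 CPM for 3 of 7 T cell markers and 10.1 to 25.9 CPM for 5 of 6 B cell markers. Most of the neutrophil sum was Mmp8, at 329 to 725 CPM, with S100a8 at 20.2 to 106 CPM and Camp at 3.48 CPM or less. Lists for eosinophils, mast cells, mesothelial cells, endothelial cells and resident peritoneal macrophages, with 2 of 4, 4 of 5, 4 of 5, 3 of 5 and 4 of 5 markers listed, each summed to 48.0 CPM or less. The T cell receptor genes Cd3e, Cd3d, Cd3g and Trac, B cell Pax5, neutrophil Ly6g and eosinophil Prg2 and Epx were not analysed here. Some sums moved with time: eosinophil markers summed to 15.3 to 18.5 CPM at 0 hr, 8.02 to 10.0 CPM at 4 hr and 3.62 to 4.58 CPM at 8 hr, neutrophil markers to 660 to 746, 445 to 689 and 362 to 575 CPM, and B cell markers to 10.1 to 16.0, 19.2 to 22.1 and 14.5 to 25.9 CPM. Resident macrophage markers summed to 16.2 to 26.1, 18.9 to 34.8 and 23.6 to 48.0 CPM, and at each time both S513A libraries were below both WT libraries. Of these markers, Timd4 was at 6.63 to 38.7 CPM, Icam2 at 3.41 to 7.3, Gata6 at 0.617 to 5.12 and Selp at 0.238 to 3.5 CPM. The share of all genes with S513A below WT at each time was not computed. The part of these cells in the members' values was not tested, and in such bulk samples fewer cells of a type and less RNA per cell cannot be told apart.

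At 4 hr of LPS most listed members had higher transcript levels than at 0 hr, and Egr2 and Klf4 had lower ones. In WT cells, 7 of the 9 were called higher and 2 lower, beside 22.6% of all tested genes called higher and 18.7% called lower. In S513A cells, 6 were called higher and 1 lower, beside 23.1% and 20.2% of tested genes. Over all tested genes, the calls leaned to lower ones after quantile normalization, with 2193 higher and 2641 lower in WT and 2313 higher and 2629 lower in S513A. Nr4a3 entered the test only because its 4 hr libraries passed the filter on low values, so its call is a description. Of the other 8 members, 6 were higher and 2 lower in WT, and 5 were higher and 1 lower in S513A. The median log2 difference of those 8 was 0.82 in WT and 0.83 in S513A, while the median over all tested genes was 0.04 and below 0.01 in size, respectively. Calls here mean a Benjamini-Hochberg adjusted p of 0.05 or less in a limma fit of 11885 genes. Without WT 0 hr replicate 1, 5 members were called higher and 1 lower in WT cells, without WT 4 hr replicate 1, 6 were called higher and 1 lower, and without WT 4 hr replicate 2, 5 were called higher and 2 lower. In S513A cells 2 members were called lower without S513A 0 hr replicate 1 or without either WT 4 hr library.

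At 8 hr fewer members were called higher than at 4 hr, mainly in WT. By the mean, 7 members were above 0 hr at 4 hr and 6 at 8 hr in WT, and 7 at both times in S513A. Of all tested genes, 52.5% and 51.7% were above 0 hr in WT, and 49.6% and 49.2% in S513A. In WT cells Klf3 and Klf6 were called higher and Egr2 and Klf4 lower, which is 2 and 2 of 9, beside 19.4% and 14.9% of tested genes. In S513A cells Klf3, Klf6, Klf7, Nr4a1 and Nr4a3 were called higher and Egr2 and Klf4 lower. That is 5 and 2 of 9, beside 20.9% and 19% of tested genes. The call of Nr4a3 is again a description, since it was tested only through its 4 hr libraries. Of the other 8 members, 2 were higher and 2 lower in WT, and 4 were higher and 2 lower in S513A. Over all tested genes in WT, 2309 were higher and 1770 lower with the deposited scaling, but 1925 higher and 2366 lower after quantile normalization, which gave 2264 higher and 2603 lower in S513A. The WT count of members called higher was 0 without WT 0 hr replicate 2, WT 8 hr replicate 1 or WT 8 hr replicate 2, and 1 without WT 0 hr replicate 1 or either S513A 0 hr library. The WT count of members called lower was 1 without WT 0 hr replicate 1 or WT 8 hr replicate 2. The S513A count of members called higher was 2 without S513A 0 hr replicate 1 or S513A 8 hr replicate 1 and 3 without S513A 8 hr replicate 2. The S513A count of members called lower was 1 without S513A 0 hr replicate 1 and 0 without S513A 0 hr replicate 2 or S513A 8 hr replicate 2.

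Between 4 and 8 hr the WT levels of Egr1, Klf2, Klf6 and Klf7 fell, which is 4 of 9 members called lower by limma beside 7.49% of tested genes. No member was called higher in WT, beside 6.73% of tested genes, although Egr2 had an unadjusted p of 0.00799 (adjusted p = 0.054) and was called higher with voom weights. In S513A cells Egr2 was called higher and Klf6 lower between 4 and 8 hr, which is 1 and 1 of 9, beside 9.31% and 8.99% of tested genes. By the mean, 8 members were lower at 8 hr than at 4 hr in WT and 6 in S513A, with Egr1, Klf2 and Klf7 among both. Of all tested genes, 51.8% in WT and 48.3% in S513A were higher by the mean. The WT count of members called lower was 0 without WT 8 hr replicate 1 and 1 without WT 8 hr replicate 2 or WT 4 hr replicate 2. Of all tested genes, 890 were lower in WT with all libraries, and 302, 319 and 488 without these 3 libraries, respectively, but 1582 without WT 4 hr replicate 1. In S513A 1106 genes were higher and 1069 lower, against 378 and 287 without S513A 4 hr replicate 2 and 400 and 338 without S513A 8 hr replicate 1. Egr2 was called higher in WT without WT 4 hr replicate 2, or without any one of the 4 S513A libraries at 4 and 8 hr. The S513A call of Klf6 was lost without S513A 4 hr replicate 2 or S513A 8 hr replicate 1. The comparisons of 4 hr with 0 hr, 8 hr with 0 hr and 8 hr with 4 hr share libraries, so their counts are not independent of each other.

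The WT 4 hr libraries differed from each other more than any other pair, with a standard deviation of the replicate difference of 0.40 on the log2 scale over genes whose average log2 CPM was 3 or more, against 0.16 to 0.34 in the other groups. Replicate 2 lay above replicate 1 for 9 of 9 members in that group, by a median of 0.51 on the log2 scale, whereas over all tested genes replicate 2 was higher for 49.3% with a median difference of -0.01. In the other 5 groups replicate 2 was above replicate 1 for 3 to 6 members. Replicates have no order here, and the values of both WT 4 hr libraries are given for each gene below. Each SE below comes from a spread that the limma fit shares over all 6 groups. It is therefore not the error of the groups compared alone, and it does not reflect the wider WT 4 hr pair.

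**Figure D1:**
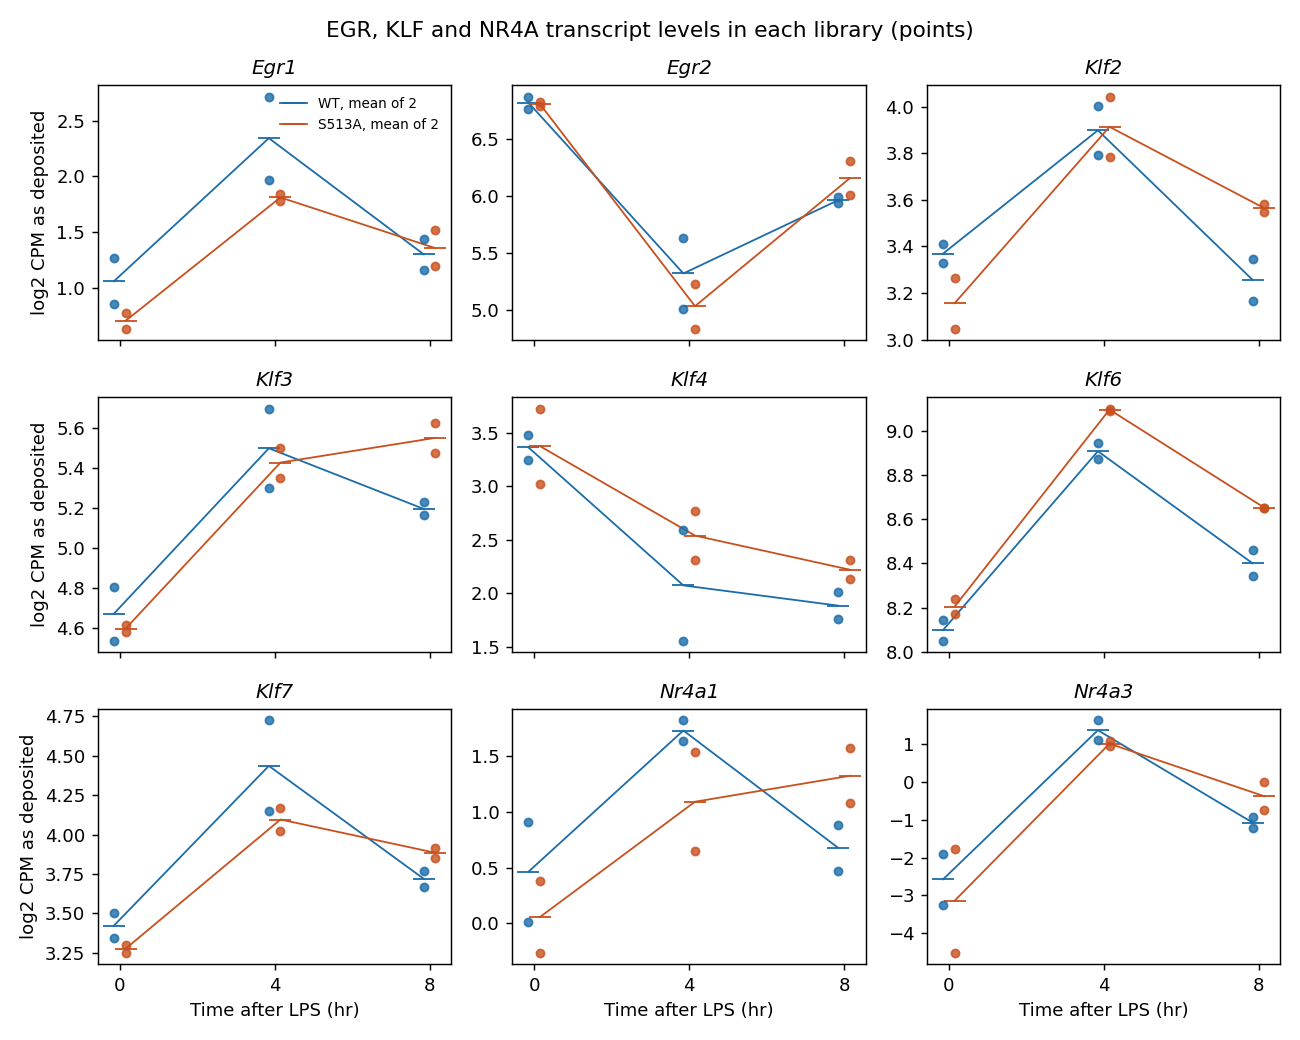
Each panel plots the deposited log2 CPM of a gene against time after LPS (0, 4 and 8 hr), with a point for each library, a dash and line for the mean of 2, and WT and S513A in different colours. Egr2 and Klf4 went down from 0 to 4 hr, the other 7 genes went up, and the points of Egr1, Klf4 and Klf7 lie far apart in the WT 4 hr group. Each panel has its own vertical scale.

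Among the EGR genes, Egr1 and Egr2 moved in opposite directions. Egr1 (Entrez 13653, chr18:34859823-34864984, plus strand), the classic serum- and kinase-induced member, was measured with few reads, from 18 to 71 per library. In WT cells it was at 2.40 and 1.81 CPM at 0 hr, 3.92 and 6.57 CPM at 4 hr and 2.23 and 2.72 CPM at 8 hr. In S513A cells it was at 1.71 and 1.55 CPM at 0 hr, 3.59 and 3.43 CPM at 4 hr and 2.29 and 2.87 CPM at 8 hr. The 4 hr libraries were thus above the 0 hr libraries in both genotypes, and WT levels at 8 hr overlapped those at 0 hr. The rise at 4 hr was 2.43-fold in WT (log2 1.28 ± 0.29 SE, n = 2 per group, adjusted p = 0.00477) and 2.15-fold in S513A (log2 1.11 ± 0.29 SE, adjusted p = 0.0103), and the S513A call was lost without S513A 0 hr replicate 2 (log2 1.04, adjusted p = 0.0586). From 4 to 8 hr Egr1 fell by 1.04 on the log2 scale in WT (adjusted p = 0.0376). That call was lost without WT 4 hr replicate 2 (log2 -0.67), WT 8 hr replicate 1 (-0.90) or WT 8 hr replicate 2 (-1.19). It was also lost without either S513A 0 hr library, which changed only the estimate of the spread. In S513A the difference from 4 to 8 hr was -0.45 on the log2 scale (adjusted p = 0.283), with both 8 hr libraries below both 4 hr libraries.

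Egr2 (Entrez 13654, chr10:67535475-67542188, plus strand), a regulator of myeloid and lymphoid cells that is also known as a marker of alternatively activated macrophages, had far more reads, from 246 to 1685 per library. WT cells had 117 and 109 CPM at 0 hr, 32.3 and 49.8 CPM at 4 hr and 61.5 and 63.7 CPM at 8 hr. S513A cells had 113 and 111 CPM at 0 hr, 37.7 and 28.6 CPM at 4 hr and 79.5 and 64.4 CPM at 8 hr. In both genotypes the 3 time points did not overlap: the level was highest at 0 hr, lowest at 4 hr and between them at 8 hr. Egr2 was 2.82-fold lower at 4 hr in WT (log2 -1.50 ± 0.20 SE, adjusted p = 0.000131) and 3.41-fold lower in S513A (log2 -1.77 ± 0.20 SE, adjusted p = 3.64e-05). These calls were kept in every fit with a library left out. From 4 to 8 hr it recovered 2.18-fold in S513A (adjusted p = 0.00426), and in WT the difference was 1.56-fold (adjusted p = 0.054). At 8 hr it was still lower than at 0 hr, by 0.86 on the log2 scale in WT (adjusted p = 0.00665) and by 0.65 in S513A (adjusted p = 0.0238). Those 8 hr calls were lost without WT 0 hr replicate 1 in WT (adjusted p = 0.0501), and in S513A they were lost without S513A 8 hr replicate 2 or any 1 of the S513A 0 hr libraries (adjusted p = 0.0884 to 0.121).

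Of the KLF genes, Klf6 (Entrez 23849, chr13:5861482-5870394, plus strand), a broadly expressed factor known to promote inflammatory gene expression in macrophages, had the highest level per exon length and the smallest error. WT cells had 265 and 283 CPM at 0 hr, 468 and 492 CPM at 4 hr and 324 and 352 CPM at 8 hr. S513A cells had 288 and 302 CPM at 0 hr, 545 and 549 CPM at 4 hr and 402 and 402 CPM at 8 hr. The level rose at 4 hr and came part of the way back at 8 hr, with no overlap between times in either genotype. The 4 hr rise was 1.75-fold in WT (log2 0.81 ± 0.10 SE, adjusted p = 6.26e-05) and 1.85-fold in S513A (log2 0.89 ± 0.10 SE, adjusted p = 2.95e-05), and it was called with every library left out. The later fall from 4 to 8 hr was by 0.51 on the log2 scale in WT (adjusted p = 0.00687) and by 0.44 in S513A (adjusted p = 0.0116). It was not called after quantile normalization in S513A (adjusted p = 0.123), without S513A 4 hr replicate 2 or S513A 8 hr replicate 1 there (adjusted p = 0.0767 and 0.0705), or without WT 8 hr replicate 1 in WT (adjusted p = 0.0788). The 8 hr excess over 0 hr was 1.23-fold in WT (adjusted p = 0.0329) and 1.36-fold in S513A (adjusted p = 0.0041). After quantile normalization the WT value turned to -0.08 on the log2 scale (adjusted p = 0.616) and the S513A value was 0.28 (adjusted p = 0.059). The WT call was also lost without any one of the 4 libraries at 0 hr or of the WT libraries at 8 hr (adjusted p = 0.0533 to 0.212).

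Klf3 (Entrez 16599, chr5:64803388-64832901, plus strand), a repressor that works through CtBP co-repressors, rose and stayed high. WT cells had 28.0 and 23.2 CPM at 0 hr, 39.4 and 51.9 CPM at 4 hr and 37.5 and 35.8 CPM at 8 hr. S513A cells had 23.9 and 24.5 CPM at 0 hr, 45.3 and 40.8 CPM at 4 hr and 44.6 and 49.3 CPM at 8 hr. All LPS libraries were above the 0 hr libraries of their genotype, and in S513A the 4 and 8 hr values overlapped. At 4 hr it was 1.77-fold higher in WT (log2 0.83 ± 0.15 SE, adjusted p = 0.00116) and 1.78-fold higher in S513A (log2 0.83 ± 0.15 SE, adjusted p = 0.00106). The differences between 8 and 0 hr were 1.44-fold in WT (adjusted p = 0.0194) and 1.94-fold in S513A (adjusted p = 0.000521). The 4 hr calls and the S513A call at 8 hr were kept with each library left out, but the WT call at 8 hr was lost without WT 0 hr replicate 2 or either WT 8 hr library (adjusted p = 0.0747 to 0.15). Without WT 4 hr replicate 1 the WT log2 difference between 8 and 4 hr, -0.30 with all libraries (adjusted p = 0.204), became -0.50 and was called (adjusted p = 0.0325).

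Klf7 (Entrez 93691, chr1:64029447-64122282, minus strand), best known from the development of neurons, rose at 4 hr in both genotypes. Its mean was lower at 8 hr than at 4 hr in both. WT cells had 10.1 and 11.4 CPM at 0 hr, 17.7 and 26.4 CPM at 4 hr and 13.6 and 12.7 CPM at 8 hr. S513A cells had 9.52 and 9.86 CPM at 0 hr, 16.3 and 18.0 CPM at 4 hr and 14.5 and 15.1 CPM at 8 hr. The times did not overlap in either genotype. The rise at 4 hr was 2.02-fold in WT (log2 1.01 ± 0.18 SE, adjusted p = 0.000942) and 1.76-fold in S513A (log2 0.82 ± 0.18 SE, adjusted p = 0.00338), with the calls kept in every fit that left out a library. At 8 hr it was 1.52-fold above 0 hr in S513A (adjusted p = 0.0191), a call lost without any 1 of the 4 S513A libraries at 0 and 8 hr (adjusted p = 0.0592 to 0.0949), and 1.23-fold in WT (adjusted p = 0.219). From 4 to 8 hr it fell by 0.72 on the log2 scale in WT (adjusted p = 0.0226), a call lost without WT 4 hr replicate 2 or either WT 8 hr library. In S513A the difference was -0.21 (adjusted p = 0.412), with both 8 hr libraries below both 4 hr libraries. Whether this change differed between genotypes was not tested. Exons of a noncoding gene on the opposite strand, Gm26649, cover 39.3% of the Klf7 exon bases, and since the reads were mapped as unstranded, their transcripts cannot be told apart in the shared part.

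Klf2 (Entrez 16598, chr8:72319033-72321656, plus strand) keeps T cells quiescent and restrains the activation of endothelial cells and monocytes. It rose at 4 hr, and its mean was lower at 8 hr than at 4 hr in both genotypes. WT cells had 10.6 and 10.0 CPM at 0 hr, 13.9 and 16.0 CPM at 4 hr and 8.97 and 10.2 CPM at 8 hr. S513A cells had 9.61 and 8.26 CPM at 0 hr, 16.5 and 13.8 CPM at 4 hr and 11.7 and 12.0 CPM at 8 hr. The WT 8 hr libraries overlapped the WT 0 hr libraries, while both S513A 8 hr libraries were above the S513A 0 hr libraries. The 4 hr rise was 1.44-fold in WT (log2 0.53 ± 0.15 SE, adjusted p = 0.0172) and 1.69-fold in S513A (log2 0.76 ± 0.15 SE, adjusted p = 0.00223). The WT call was lost without either WT 0 hr library or WT 4 hr replicate 2 (adjusted p = 0.0574 to 0.0935). At 8 hr the difference from 0 hr was -0.11 on the log2 scale in WT (adjusted p = 0.592) and 0.41 in S513A (adjusted p = 0.054). The S513A value was called without either WT 4 hr library (adjusted p = 0.0442 and 0.0445), which changed only the estimate of the spread, with the stricter filter (adjusted p = 0.049) and after quantile normalization (log2 0.48, adjusted p = 0.027). From 4 to 8 hr Klf2 fell by 0.64 on the log2 scale in WT (adjusted p = 0.0191), and the call was lost without WT 4 hr replicate 2 or either WT 8 hr library. In S513A the difference was -0.35 (adjusted p = 0.126), with both 8 hr libraries below both 4 hr libraries. Whether this change differed between genotypes was not tested. Beside these values, the summed CPM of 3 T cell markers was 13.6 to 16.7 at 0 hr, 14.0 to 22.7 at 4 hr and 8.12 to 10.7 at 8 hr, and that of 3 endothelial markers 8.26 to 12.2, 4.18 to 8.14 and 6.92 to 11.7. Their part in the Klf2 level was not tested.

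Klf4 (Entrez 16600, chr4:55527143-55532466, minus strand), a pluripotency factor that also takes part in monocyte differentiation, went the other way from the other KLF members. WT cells had 11.1 and 9.50 CPM at 0 hr, 2.95 and 6.02 CPM at 4 hr and 4.04 and 3.39 CPM at 8 hr. S513A cells had 8.12 and 13.2 CPM at 0 hr, 4.97 and 6.80 CPM at 4 hr and 4.96 and 4.39 CPM at 8 hr. All LPS libraries were below the 0 hr libraries of their genotype, and the WT values at 4 and 8 hr overlapped. The drop at 4 hr was 2.44-fold in WT (log2 -1.29 ± 0.33 SE, adjusted p = 0.0102), and the S513A difference was -0.83 ± 0.33 (SE) on the log2 scale (adjusted p = 0.0662). After 8 hr Klf4 was 2.78-fold below 0 hr in WT (adjusted p = 0.00601) and 2.22-fold below it in S513A (adjusted p = 0.019). Each of these calls was lost with some library left out, but the direction was kept in every such fit. The WT call at 4 hr was lost without WT 0 hr replicate 1 (adjusted p = 0.0689) or WT 4 hr replicate 1 (log2 -0.77, adjusted p = 0.0737), and the WT call at 8 hr without WT 8 hr replicate 2 (adjusted p = 0.0524). The S513A call at 8 hr was lost without S513A 0 hr replicate 2 (adjusted p = 0.158) or S513A 8 hr replicate 2 (adjusted p = 0.0669), and the S513A drop at 4 hr was called without S513A 0 hr replicate 1 (log2 -1.18, adjusted p = 0.0441) or either WT 4 hr library (adjusted p = 0.0203 and 0.021).

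The NR4A genes were measured with few reads. Nr4a1 (Entrez 15370, chr15:101254269-101274795, plus strand), a nuclear receptor known from T cell receptor signalling and from patrolling monocytes, had 9 to 38 reads per library. WT cells had 1.01 and 1.89 CPM at 0 hr, 3.12 and 3.54 CPM at 4 hr and 1.85 and 1.38 CPM at 8 hr. S513A cells had 0.834 and 1.30 CPM at 0 hr, 2.90 and 1.57 CPM at 4 hr and 2.11 and 2.98 CPM at 8 hr. In WT the level was back within the 0 hr range at 8 hr, whereas in S513A the 4 and 8 hr ranges overlapped and both lay above 0 hr. The rise at 4 hr was 2.41-fold in WT (log2 1.27 ± 0.41 SE, adjusted p = 0.031) and 2.05-fold in S513A (log2 1.04 ± 0.41 SE, adjusted p = 0.0666). Its log2 difference between 8 and 0 hr was 1.27 ± 0.41 (SE) in S513A (adjusted p = 0.0325) and 0.21 ± 0.41 (SE) in WT (adjusted p = 0.719). The WT call at 4 hr was lost without WT 0 hr replicate 1 (log2 0.82, adjusted p = 0.229) or either WT 4 hr library (adjusted p = 0.0678 and 0.105), the S513A value at 4 hr was called without S513A 4 hr replicate 2 (log2 1.48, adjusted p = 0.0347) or after quantile normalization (log2 1.16, adjusted p = 0.0345), and the S513A call at 8 hr was lost without S513A 0 hr replicate 1 or either S513A 8 hr library (adjusted p = 0.0508 to 0.195).

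Nr4a3 (Entrez 18124, chr4:48045153-48086447, plus strand), a close relative of Nr4a1 with overlapping functions, was near absent at 0 hr, with 1 and 3 reads in the WT libraries and 0 and 3 reads in the S513A libraries, so that no 0 hr library exceeded the floor of 3 reads. At 4 hr the WT libraries had 24 and 33 reads (2.16 and 3.08 CPM) and the S513A libraries 21 and 16 reads (2.12 and 1.92 CPM). At 8 hr they had 4 and 5 reads (0.427 and 0.525 CPM) and 11 and 5 reads (0.992 and 0.595 CPM). Nr4a3 was thus highest at 4 hr in both genotypes, with no overlap between 4 hr and the other times. Summed over the 2 libraries and scaled to library size, the reads at 4 hr were 17.5 times those at 0 hr in WT (exact 95% interval 6.48 to 66.5) and 15.3 times in S513A (4.85 to 77.7). At 8 hr the ratio to 0 hr was 2.93 in WT (0.817 to 13) and 5.97 in S513A (1.71 to 32). These intervals cover counting error only. The limma fit gave adjusted p values of 0.00298 and 0.00204 at 4 hr, and of 0.184 and 0.0216 at 8 hr, in WT and S513A respectively. Nr4a3 passed the filter on low values only through its 4 hr libraries, so these values are a description. The S513A call at 8 hr was lost without S513A 0 hr replicate 1 (adjusted p = 0.163) or S513A 8 hr replicate 1 (adjusted p = 0.116).

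**Figure D2:**
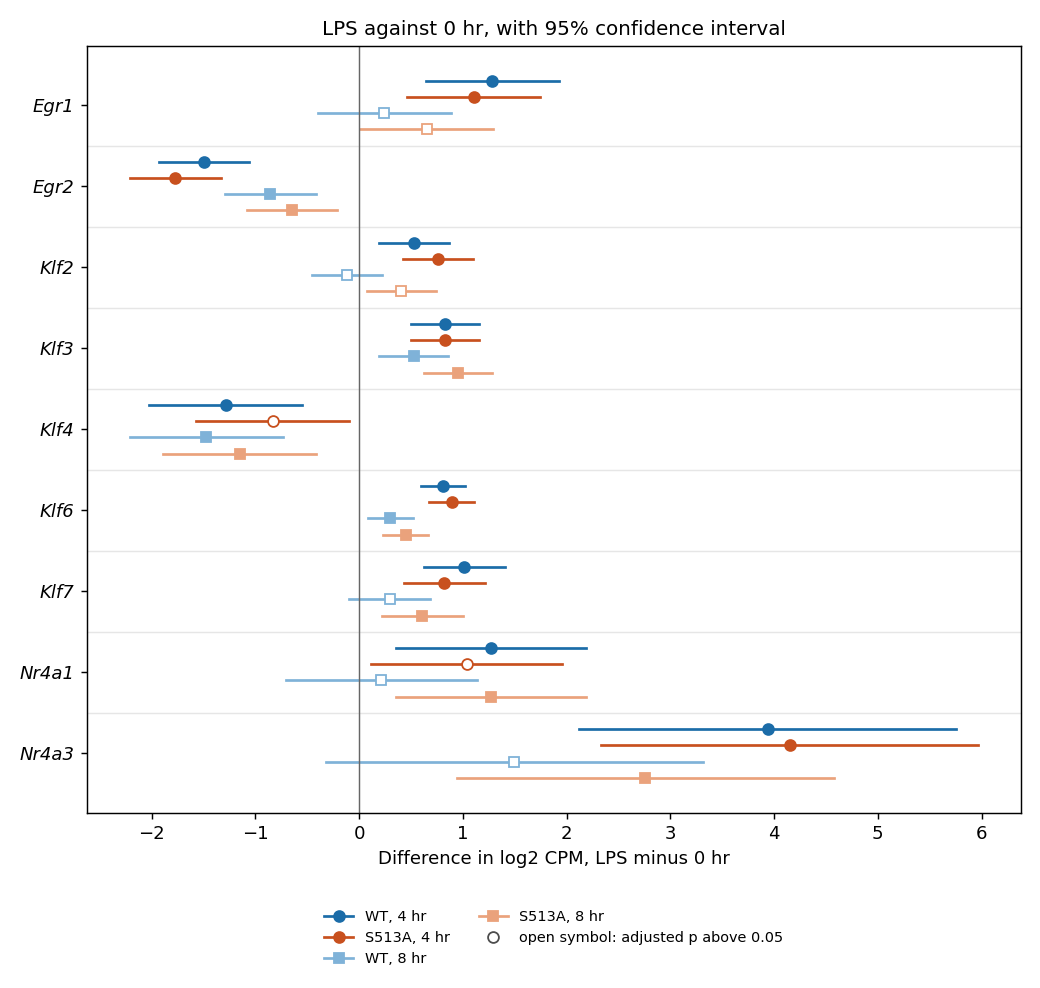
For each of the 9 genes, symbols give the log2 difference from 0 hr at 4 hr (circles) and 8 hr (squares) in WT and S513A, with the limma 95% confidence interval as a bar. Filled symbols are called and open symbols are not. Egr2 and Klf4 lie left of 0 at both times and Klf3 and Klf6 lie right of it, and the intervals of Nr4a3, with 0 to 3 reads in its 0 hr libraries, are the widest.

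Divided by the exon length of each gene, levels could be compared between genes. At 0 hr the order by median over the 4 libraries was Klf6 (65.1 CPM per kb of exon), Egr2 (33.0), Klf2 (5.32), Klf4 (3.38), Klf3 (2.15), Klf7 (1.23), Egr1 (0.392), Nr4a1 (0.329) and Nr4a3 (0.0312). All neighbours in that order were separated over the libraries except Egr1 and Nr4a1, whose ranges of 0.346 to 0.536 and 0.238 to 0.537 CPM per kb overlapped. At 4 hr Klf6 stood at 118 CPM per kb and Egr2 at 10.3, and the range of Egr2 (8.43 to 14.6) then overlapped that of Klf2 (7.45 to 8.93). Klf4 dropped below Klf3 and Klf7 at 4 hr, with a median of 1.80 against 3.83 and 2.19 CPM per kb, although its range of 0.967 to 2.23 overlapped that of Klf7 (2.00 to 3.25). At 8 hr Klf6 was at 85.8 and Egr2 at 18.8 CPM per kb, again apart from all others.

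**Figure D3:**
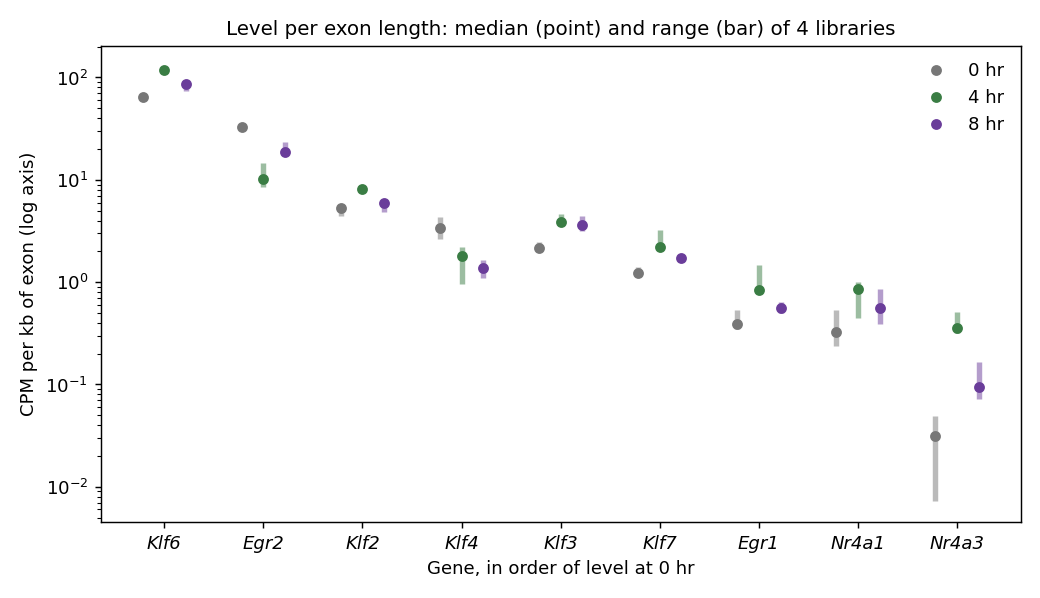
The level per kb of exon (log axis) of each gene is shown as the median (point) and range (bar) of the 4 libraries at 0, 4 and 8 hr, WT and S513A together. Klf6 and Egr2 lie above the rest at 0 and 8 hr, with medians of 65.1 and 33.0 CPM per kb at 0 hr, and Nr4a3 has the lowest median at every time.

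The question of the genotype comparison was whether the S513A substitution alters the transcriptome of these cells. No member was called between S513A and WT at 0, 4 or 8 hr or averaged over the 3 times in the limma fit, with a smallest adjusted p of 0.395. Of all tested genes, 0.0337%, 0.0168%, 0.0337% and 0.0673% were called in these comparisons, which is 4, 2, 4 and 8 genes. A fit of only the 4 libraries at 0 hr called 454 genes higher and 239 lower in S513A, and no member. Unadjusted p values under 0.05 were found for 0 members at 0 hr, 0 at 4 hr, 2 at 8 hr (Klf3, 0.0366, and Klf6, 0.025) and 1 in the average (Klf6, 0.00787, adjusted p = 0.544), where 7.98%, 7.01%, 12.5% and 6.71% of tested genes had one. No alternative, voom weights included, called a member.

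At 8 hr the mean of the S513A libraries was above that of the WT libraries for 9 of 9 listed members, with a median log2 difference of 0.31, and 51.1% of all tested genes had a positive difference. The values were 0.36 ± 0.15 (SE) for Klf3 and 0.25 ± 0.10 for Klf6, with adjusted p values of 0.395 in both cases, and 0.65 ± 0.41 for Nr4a1 (adjusted p = 0.465). For Klf6 both S513A libraries were above both WT libraries at each of the 3 times, with log2 differences of 0.11, 0.19 and 0.25 at 0, 4 and 8 hr. At 0 hr 2 of 9 members and at 4 hr 3 of 9 had a positive difference. Members of one library share its depth and handling, so 9 genes are not 9 independent observations. Beside these values, resident macrophage markers at 8 hr summed to 40.1 and 48.0 CPM in WT and 23.6 and 28.3 CPM in S513A. Timd4 reached the highest level of these markers, and their part in the members' differences was not tested.

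The intervals, which are not adjusted for the number of genes tested, show what differences the data could hold. At 8 hr the 95% interval of the S513A to WT ratio was 1.03 to 1.38 for Klf6 and 1.02 to 1.61 for Klf3. Both had a limma adjusted p of 0.395. The interval was 0.845 to 1.55 for Egr2 and 0.667 to 1.62 for Egr1. For Nr4a1 it was 0.829 to 2.96. For Nr4a3 it was 0.46 to 5.72, which spans both a lower and a several-fold higher level.

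**Figure D4:**
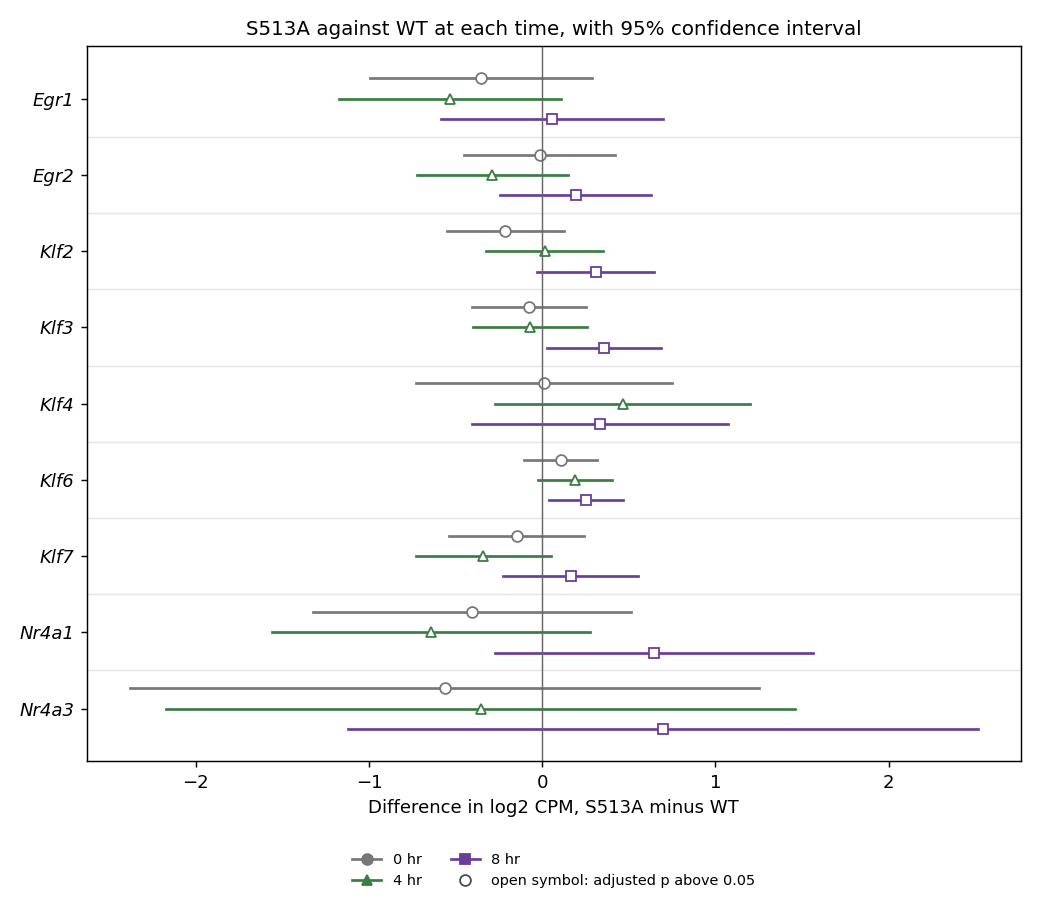
For each gene, symbols give the log2 difference of S513A from WT at 0 hr (circles), 4 hr (triangles) and 8 hr (squares) with the limma 95% confidence interval. All symbols are open, since none was called, and all 9 squares lie right of 0.

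Whether the LPS response itself differed between genotypes was tested as an interaction. For the 4 hr response no member was called and 0% of tested genes were called. No member had an unadjusted p under 0.05, where 144 of 11885 genes (1.21%) did. For the 8 hr response no member was called, 0% of tested genes were called, and 1 member, Klf2, had an unadjusted p under 0.05 (0.0348), where 2405 of 11885 genes (20.2%) did. Without S513A 8 hr replicate 2, 26 genes were called with a higher and 625 with a lower 8 hr response in S513A, and still no member. The Klf2 response to 8 hr of LPS was 0.52 ± 0.22 (SE) higher in S513A on the log2 scale, with an adjusted p of 0.229. The estimate was 1.26 for Nr4a3, 1.05 for Nr4a1, 0.43 for Klf3 and 0.31 for Klf7 (adjusted p = 0.525, 0.307, 0.266 and 0.46), and for Egr1, Klf4, Egr2 and Klf6 it was 0.41, 0.32, 0.21 and 0.15 (adjusted p = 0.557, 0.695, 0.671 and 0.532). Calls of Klf7, Nr4a1 and Nr4a3 at 8 hr in S513A and not in WT are therefore not shown to differ between the genotypes. All 9 estimates were above 0, with a median of 0.41, and 50.8% of all tested genes had one above 0. They share the 8 hr libraries with the genotype comparison at 8 hr.

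Other genes of the 3 families and of the pathways around them were counted over fixed lists. These counts stand beside shares of all tested genes called higher and lower of 22.6% and 18.7% in WT and 23.1% and 20.2% in S513A at 4 hr, and of 19.4% and 14.9% in WT and 20.9% and 19% in S513A at 8 hr. Of 14 further EGR, KLF and NR4A genes 7 were listed and tested. At 4 hr 1 was called higher and 1 lower in WT, and 1 higher and 2 lower in S513A. At 8 hr 0 were higher and 2 lower in WT, and 1 was higher and 2 lower in S513A. Klf10, a TGF-beta-induced repressor, fell at 4 hr by 0.94 on the log2 scale in WT (adjusted p = 0.00115) and by 0.99 in S513A (adjusted p = 0.000743). Klf8, a repressor related to Klf3, rose at 4 hr by 0.73 in WT (adjusted p = 0.0344) and 1.16 in S513A (adjusted p = 0.00295), and from 4 to 8 hr it fell by 1.63 and 1.34 on the log2 scale (adjusted p = 0.0021 and 0.00507). Klf11, a relative of Klf10, was called lower in S513A at 8 hr (log2 -0.79, adjusted p = 0.0154).

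A list of 15 upstream regulators and co-repressors (serum response factor and its partners, MEF2 factors, the ERK5 kinase module, Nab1 and Nab2, Ctbp1 and Ctbp2) was tested in full. At 4 hr 3 were called higher and 5 lower in WT (22.6% and 18.7% of all tested genes), and 2 higher and 7 lower in S513A (23.1% and 20.2%). At 8 hr 1 was higher and 6 lower in WT, and 3 were higher and 2 lower in S513A. Mef2c, a MADS-box factor known to drive Klf2 and Nr4a1 transcription in other cells, fell at 4 hr by 1.55 on the log2 scale in WT (adjusted p = 0.000424) and by 1.38 in S513A (adjusted p = 0.000905), and at 8 hr was below 0 hr by log2 -1.10 and -0.67 (adjusted p = 0.00481 and 0.0461). Nab1, a co-repressor that binds EGR proteins, rose at 4 hr by 0.73 on the log2 scale in both genotypes (adjusted p = 0.00019 and 0.000183). It was still above 0 hr at 8 hr by 0.59 in WT and 0.50 in S513A (adjusted p = 0.0011 and 0.00273). Mkl2, a coactivator of serum response factor, was lower at 4 hr by log2 -0.58 in WT and -0.86 in S513A (adjusted p = 0.0476 and 0.00711). Of 15 immediate early genes outside the families, 14 were tested, and 11 were called higher and 2 lower at 4 hr in each genotype, where 22.6% and 18.7% of all tested genes were in WT and 23.1% and 20.2% in S513A. At 8 hr 4 were higher and 2 lower in WT, and 8 were higher and 2 lower in S513A. None of the 3 lists had a member called between genotypes.

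Over the 12 libraries, the genes most like each member by Pearson's r of log2 CPM were Plk2 and Usp12 for Klf6 (both 0.99), 5031439G07Rik and Srpk2 for Egr2 (both 0.99) and Chpf2 and Rnf31 for Klf3 (both 0.98). They were Ddx3y (0.97) and Cdc27 (0.95) for Egr1, Asb1 (0.97) and Mrgbp (0.96) for Klf2, and Eea1 and Sntb2 (both 0.97) for Klf7. For Klf4 they were Sox7 (0.92) and Zbtb16 (0.91), for Nr4a1 Hbs1l and Nle1 (both 0.92), and for Nr4a3 Cuedc1 and Cdc14a (both 0.96). Within the families Egr1 ran closest to Klf7 (0.94), Egr2 ran opposite to Klf6 (-0.92), and Nr4a3 ran with Klf6 (0.91). The 12 points share 3 times and 2 genotypes, so these are descriptions of the time course.

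The RefSeq promoter windows of the members (build GRCm38.p6) were read for elements bound by factors that switch on immediate early genes and by the members themselves. Entries were matched for 8 of the 9 listed members, all but Egr1, and the 250 bases before the start were searched on both strands. The half-site of the cAMP response element, TGACG, was found 4 times in the window of Nr4a1, 4 times in that of Nr4a3, 2 times in 3 of the 5 overlapping or neighbouring windows of Egr2, and once in those of Klf2 and Klf4. The windows of Klf3, Klf6 and Klf7 did not hold these letters. Of all 32851 windows of that length 17.8% held at least 1 half-site, 3.9% at least 2 and 0.137% at least 4. A CArG box, the element bound by serum response factor, was found in 4 of the 5 Egr2 windows and in 1.47% of all windows. The Egr2 windows overlap or neighbour each other, so the same box or half-site can be counted in more than 1 of them. The response element of NR4A receptors, AAAGGTCA, the EGR element GCGTGGGCG and a kappaB site were found in none of the members' windows (1.34%, 0.536% and 3.9% of all windows). GC boxes (GGGCGG, 32.7% of all windows) were found 6 times for Klf3, 4 times for Klf4, 3 times for Nr4a1, 2 times for Klf2 and once each for Klf6, Klf7 and Nr4a3, and in 2 of the Egr2 windows. The windows of Egr2, Nr4a1 and Nr4a3 are shown for their repeated half-sites, and that of Klf4 because it fell with Egr2 in WT at 4 hr. The sequences below are the part of each window that no GENCODE exon covers, 5′ to 3′ on the gene's strand, with half-sites (TGACG or its complement CGTCA) and the CArG box in capitals. They lie at chr10:67537619-67537868 (Egr2, plus strand, 1 of the 3 windows with 2 half-sites and a CArG box), chr15:101266596-101266845 (Nr4a1, plus strand), chr4:48045055-48045152 (Nr4a3, plus strand) and chr4:55532476-55532725 (Klf4, minus strand).
Egr2: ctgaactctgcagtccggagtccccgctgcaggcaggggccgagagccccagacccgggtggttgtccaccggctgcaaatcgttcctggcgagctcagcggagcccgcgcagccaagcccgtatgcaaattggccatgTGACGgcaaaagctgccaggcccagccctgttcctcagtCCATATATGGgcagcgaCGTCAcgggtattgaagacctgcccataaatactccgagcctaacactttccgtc
Nr4a1: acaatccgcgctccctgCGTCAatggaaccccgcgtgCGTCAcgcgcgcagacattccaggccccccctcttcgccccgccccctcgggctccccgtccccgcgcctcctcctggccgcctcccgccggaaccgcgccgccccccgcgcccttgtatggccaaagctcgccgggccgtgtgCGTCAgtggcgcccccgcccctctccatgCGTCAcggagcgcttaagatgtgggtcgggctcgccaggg
Nr4a3: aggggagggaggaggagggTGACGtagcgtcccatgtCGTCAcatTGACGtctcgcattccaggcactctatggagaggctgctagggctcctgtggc
Klf4: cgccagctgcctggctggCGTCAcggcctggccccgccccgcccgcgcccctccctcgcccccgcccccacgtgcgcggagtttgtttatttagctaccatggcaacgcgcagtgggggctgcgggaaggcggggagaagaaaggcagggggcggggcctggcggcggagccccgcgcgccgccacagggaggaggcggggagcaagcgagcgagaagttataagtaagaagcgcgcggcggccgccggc
The 3 half-sites of Nr4a3 that are shown lie within the first 50 bases of the stretch, the CArG box of Egr2 lies between its 2 half-sites, and the half-sites of Nr4a1 are spread over the window. A match of letters is a description, not a site of binding, and no binding was measured.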

How the data were processed

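RNA-seq libraries from 12 samples of thioglycollate-elicited PECs (2 per genotype and time) were examined. Per the labels and the study's methods, the authors used HISAT2 to map paired-end reads, as unstranded, to mm10, and featureCounts 1.6.3 to count them. The strand setting of the counting is not given in the sources used here. The deposited values are log2 CPM, made by the authors as the log2 of the reads plus 0.5 over an effective library size. Multiplying back gave whole reads, with a largest departure of 0.00103 read. The program behind the values and the gene annotation are not given in the sources used here.

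A gene was tested if 2 or more libraries reached 1 CPM, which held for 11885 of 12850 genes and for the 9 listed members. Nr4a3 reached 1 CPM only in its 4 libraries at 4 hr and Nr4a1 in 11 libraries. The deposited log2 values were fitted with limma 3.58.1 in R 4.3.3, with 1 mean per group (6 groups, 6 residual degrees of freedom), the spread being moderated with a trend on the level. The 12 contrasts were two-sided, with Benjamini-Hochberg adjustment over all tested genes of each contrast and a threshold of 0.05. Fold changes are on the scale of the deposited values and can differ from ratios of reads in either direction for genes with few reads. The fit was tested on simulated data.

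The members, the lists and the tests were chosen with earlier results of these data known. The rule for named genes was all members in every comparison, the 3 genes of each of the other family and regulator lists with the largest mean absolute log2 change over the 4 contrasts of LPS against 0 hr, and the 2 genes most like each member. Immediate early genes and cell type markers were used as counts and summed levels. Alternatives changed the filter (none, or an average of 5 CPM), the pseudocount (1 CPM more), the scaling (quantile normalization or median ratios), the prior (no trend, or robust), the weights (voom on the recovered reads) and the libraries in the fit (only the groups compared, or each left out in turn), or added the replicate number as a block, over all libraries or within genotype. Replicate numbers were not used as pairs. Over genes, the replicate differences of 2 times correlated with r from -0.10 to 0.08 within WT and from 0.09 to 0.42 within S513A. Between groups of different genotype r was -0.41 to 0.14. The labels do not say what a number marks.

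Positions and exon lengths (the union of exons over all transcripts) came from GENCODE M21 (GRCm38). Promoter windows came from RefSeq (GRCm38.p6). The intervals of ratios of reads are exact at 95%, and the floor is 3 reads. Tables and plots were made with Python 3.11.15, pandas 2.3.3, NumPy 2.4.6 and matplotlib 3.10.9. The paper's other experiments were not analysed here.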

Additional observations from a re-analysis of the deposited data

Results flagged for a closer look

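For Klf2, Klf7, Nr4a1 and Nr4a3 the S513A libraries lay on opposite sides of the WT libraries at different times, without overlap at either time. The share of all tested genes with such a crossing was not computed, so the crossing is not read as a trait of these members. Klf2 was lower in S513A at 0 hr (log2 -0.21) and higher at 8 hr (0.31), and the test of that difference, the interaction at 8 hr, gave an adjusted p of 0.229. Klf7 was lower at 0 hr (log2 -0.15) and higher at 8 hr (0.17), and the corresponding test gave an adjusted p of 0.46. Nr4a1 was lower in S513A at 4 hr (log2 -0.64) and higher at 8 hr (0.65), with 13 to 38 reads per library at these times, and Nr4a3 was lower at 4 hr (log2 -0.36) and higher at 8 hr (0.70), with 4 to 33 reads. The differences between 4 and 8 hr were not tested. No single value among these was called between genotypes.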

How the results depend on the processing

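The totals of member values recomputed under the alternatives pool all 12 contrasts. The genotype and interaction contrasts held no member call to lose, and leaving out a library outside a contrast left its log2 difference unchanged. The totals therefore do not measure how firm the LPS calls were. Of the recomputed values, 2352 kept their direction and their side of the threshold, 60 lost a call and 26 gained a call. A further 55 changed sign without a call in either fit, and 1 called value changed sign. That one was Klf6 at 8 hr against 0 hr in WT, which was -0.0753 on the log2 scale after quantile normalization (adjusted p = 0.616). The cause was not tested.

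Among the counts of members, the stricter filter left 6 members and called 4 higher at 4 hr in WT, since 3 members were no longer tested. Voom weights and a fit of only the groups compared each called 2 lower at 4 hr in S513A. Median-ratio scaling and quantile normalization each called 1 higher at 8 hr against 0 hr in WT. For 8 hr against 4 hr, quantile normalization, voom weights and the replicate block within genotype each called 1 higher in WT, and a fit of only the groups compared, with 4 libraries, called 1 lower in WT. That one was Nr4a3, which passed the filter only through its 4 hr libraries, while Egr1, Klf2, Klf6 and Klf7 lost their calls (adjusted p = 0.0942, 0.0945, 0.116 and 0.0989). In S513A that comparison had 2 lower with the further pseudocount, the added one again being Nr4a3, and 0 lower after quantile normalization or with only the groups compared. Causes were not tested where none is named. With each library left out in turn, the counts higher and lower ranged from 5 to 7 and 1 to 2 (4 hr, WT), 5 to 7 and 1 to 2 (4 hr, S513A), 0 to 2 and 1 to 2 (8 hr, WT), 2 to 6 and 0 to 2 (8 hr, S513A), 0 to 1 and 0 to 5 (8 against 4 hr, WT), and 1 to 1 and 0 to 1 (8 against 4 hr, S513A). Where an arm was left with 1 library, that library was assumed to vary like the other groups.

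The replicate number as a block ended the Egr1 call at 8 hr against 4 hr in WT (adjusted p = 0.0511, and 0.0529 within genotype) and, within genotype, gave the call of Egr2 in the same comparison (adjusted p = 0.0409). It changed no other call of a member. Read numbers limit Egr1, Nr4a1 and Nr4a3, which had at most 71 reads in any library. No setting called a member between genotypes or in an interaction.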
